A study of Mus musculus with 24 samples.

Results

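The genes described here are the 9 rows of the deposited count table named Prkaca, Prkacb, Prkar1a, Prkar1b, Prkar2a, Prkar2b, Pkia, Akap12 and Akap13. They encode catalytic subunits, regulatory subunits, an inhibitor and 2 anchoring proteins of protein kinase A, the cyclic AMP-dependent kinase. They were chosen by symbol from 39253 listed genes, and all 9 passed the filter on low counts that left 15405 genes to test. The cells were primary granulosa cells, the follicle cells around the oocyte, from C57BL/6 mice 23 days old that had received pregnant mare serum gonadotropin (PMSG), which drives follicle growth, 48 h earlier. Cells pooled from 2 mice were plated, transfected for 3 h, and then kept for 4 h or 12 h with human chorionic gonadotropin (hCG), which acts on the luteinizing hormone receptor, or with plain medium. The 6 groups of 4 libraries were siNTS with hCG at 12 h, siNC with hCG at 12 h, siNC without hCG at 12 h, siNTS with hCG at 4 h, siNC with hCG at 4 h and siNC without hCG at 4 h. Here siNTS is an siRNA against Nts, the gene of neurotensin, and siNC is a negative control siRNA, so every group was transfected. All groups share PMSG priming and culture, and no group with siNTS and without hCG was analysed here, so siNTS was compared only in hCG-treated cells.

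The luteinizing hormone receptor couples to the stimulatory G protein, which activates adenylyl cyclase, and the cyclic AMP made there binds the regulatory subunits of protein kinase A and frees its catalytic subunits. Regulatory subunits exist as type I and type II forms, which differ in their affinity for cyclic AMP and in their place in the cell, and anchoring proteins (AKAPs) hold the kinase beside its substrates. In granulosa cells this kinase passes on the signals of both gonadotropins, and the type II beta subunit Prkar2b is known from rat granulosa cells as a gene raised by follicle-stimulating hormone as follicles grow.

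One known transcriptional output of the kinase is phosphorylation of CREB, which binds the cyclic AMP response element (CRE) TGACGTCA or its shorter form TGACG, so these letters were searched in the 250 bases before each annotated start of the members. RefSeq promoter windows of the build GRCm38.p6 matched 7 of the 9 members, in 20 windows. The palindromic CRE was found in 1 of these windows, of Prkar1a, and in 1.55% of 32851 windows of all genes. TGACG, on either strand (the reverse strand reads CGTCA), was found in 6 of the members' windows and in 17.8% of all windows. These 6 belong to Prkaca, Prkacb, Prkar1a and Prkar1b, and some windows of Prkar1a overlap and share a match. Counted by gene, TGACG was found for 4 of the 7 members with windows and for 19.8% of 27025 genes. A CRE also holds TGACG on both strands. A match describes letters in these windows only. The following sequences are shown because they hold the sole CRE of the members (Prkar1a), a window of the catalytic subunit gene that rose with hCG at 12 h (Prkaca), and that of the subunit gene that rose with hCG at both times (Prkar2a). Each is written 5′ to 3′ on the gene's own strand, from chr11:109650889-109650918 (plus strand), chr8:83972728-83972977 (plus strand) and chr9:108691893-108692142 (plus strand), with matched letters in capitals.
Prkar1a: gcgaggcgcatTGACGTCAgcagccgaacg
Prkaca: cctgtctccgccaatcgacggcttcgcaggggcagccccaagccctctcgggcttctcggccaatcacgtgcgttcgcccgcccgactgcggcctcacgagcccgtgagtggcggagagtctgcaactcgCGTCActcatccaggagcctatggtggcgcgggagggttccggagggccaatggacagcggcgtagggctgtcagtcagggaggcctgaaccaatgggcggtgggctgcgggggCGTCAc
Prkar2a: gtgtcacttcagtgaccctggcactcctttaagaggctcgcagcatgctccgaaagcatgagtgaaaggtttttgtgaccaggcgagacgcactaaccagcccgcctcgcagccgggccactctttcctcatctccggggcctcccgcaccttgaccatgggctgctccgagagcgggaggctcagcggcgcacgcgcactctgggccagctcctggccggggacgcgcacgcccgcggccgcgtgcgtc
The first base of the Prkar1a element lies 49 bases before the start at position 109650949. In the Prkaca window the short form begins 120 bases and 6 bases before the start at position 83972978, and the Prkar2a window holds none of these letters in either form.

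Library totals were 26.2 M to 45.4 M estimated counts with a median of 39.2 M, and levels are given in CPM, counts scaled by edgeR's TMM factors to a common library total. The replicates carry the labels A_1, A_2, B_2 and B_3, and values listed for a group follow that order. The labels give 3 culture dates, with A_2 and B_2 on one of them, and do not say whether every library is a separate pool of mice, so the p-values speak of the spread among these libraries alone, some of which may be technical. Among the A_1 libraries, that of siNC without hCG at 12 h stood apart. Its deviations from its group correlated at −0.67 with those of the A_1 library of siNC with hCG at 12 h. With those of the A_1 library of siNC without hCG at 4 h they correlated at −0.63. A single correlation does not say which library of a pair is unusual. The other A_1 pairs compared, none of which holds this library, correlated at 0.49 to 0.95. The hCG changes at 12 h are given with and without the A_1 library of siNC without hCG at 12 h. Nts was lower with siNTS under each of the 4 labels at both times, at 0.0764 to 2.73 CPM with siNTS against 1.49 to 9.67 CPM with siNC at 12 h, and 1.99 to 42.9 CPM with siNTS against 16.1 to 180.0 CPM with siNC at 4 h. Its log2 difference of −2.34 ± 1.16 at 12 h and −2.22 ± 1.02 at 4 h did not pass the edgeR test (adjusted p = 1.00 and 1). All 10 granulosa markers examined were detected and summed to 1930 to 4595 CPM per library, against 43.2 to 96.3 CPM for 5 theca, 5.29 to 16.7 CPM for 5 endothelial and 4.90 to 27.3 CPM for 7 immune markers. The 5 erythrocyte markers summed to 101 to 4283 CPM.

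Per kilobase of the median coding transcript, Prkar2b and Prkar1a were the most abundant members, at 231 and 207 CPM per kb on average over the 24 libraries. Prkaca followed at 76.7 CPM per kb, then Prkacb at 27.3, Prkar2a at 22.8 and Prkar1b at 19.2. Pkia stood at 7.89, Akap13 at 7.15 and Akap12 at 1.84 CPM per kb. The ranges over all libraries overlapped between Prkar2b and Prkar1a, among Prkacb, Prkar2a and Prkar1b, and among Pkia, Akap13 and Akap12. Apart from Akap12, these neighbours are not ordered beyond their spread over all libraries. By this length, every Akap12 library lay below every Pkia library of its group. The closest were 4.50 for Akap12 and 4.83 for Pkia, in siNTS with hCG at 12 h. Akap12 also lay below Akap13 in each group except that one, where Akap13 went down to 4.28. Pkia, at up to 13.3 CPM per kb, also reached above the lowest Prkar2a library at 12.8. Prkaca, with 58.3 to 106 CPM per kb, overlapped no other member. With the union of all exons as the length, 2 pairs turned round: Prkar1b was at 17.4 and Prkar2a at 14.0005, and Akap13 at 7.13 and Pkia at 4.57 CPM per kb.

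**Figure D1:**
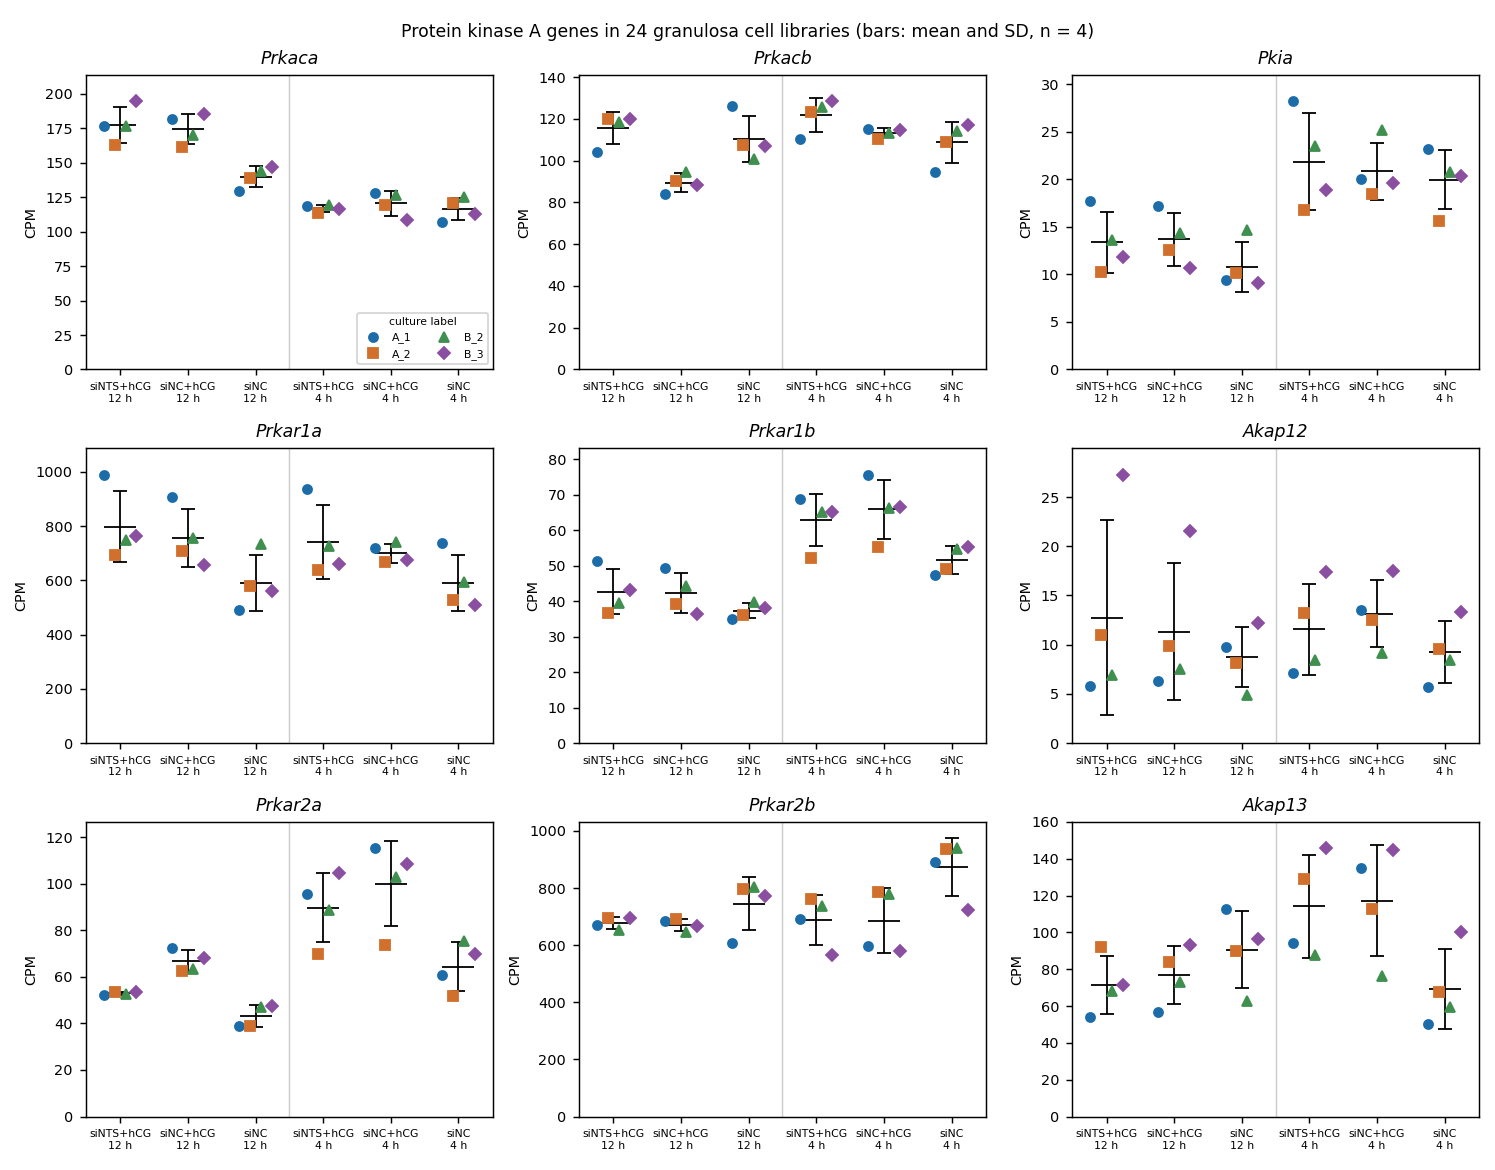
Level of each of the 9 genes in CPM (vertical axis, from 0) in every library, by group along the horizontal axis, with 12 h left of 4 h; points are libraries by culture label, and bars are the mean and SD of 4. Prkar2a with hCG and siNC lies at 62.5 to 72.6 CPM at 12 h, above the 39.0 to 47.6 CPM without hCG, and Akap12 is highest in the B_3 library of 6 of 6 groups.

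With hCG, the subunit genes changed by less than 2-fold and not all in one direction. At 12 h, 3 of the 9 genes passed the test (adjusted p under 0.05), Prkaca and Prkar2a higher and Prkacb lower, where 16.5% of all tested genes passed, 8.18% as higher and 8.36% as lower. At 4 h, Prkar1b, Prkar2a and Akap13 passed, all higher, where 19.1% of all genes passed, 7.95% as higher and 11.1% as lower. Groups with and without hCG did not overlap for 3 members at 12 h, where 22.2% of all genes did not overlap, and for 0 members at 4 h, where 19% did not. The members' median change was 0.32 at 12 h and 0.24 at 4 h on the log2 scale, beside −0.01 and −0.07 over all tested genes. None of the 9 genes passed for the Nts siRNA at either time. This test did not pair the culture labels, and with the labels as a block Prkacb passed at 12 h. Differences are log2 fold changes with their standard errors from edgeR's quasi-likelihood test, with p-values adjusted over all 15405 genes by the Benjamini-Hochberg method. In bulk samples, fewer cells of a type and less RNA per cell cannot be told apart.

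**Figure D2:**
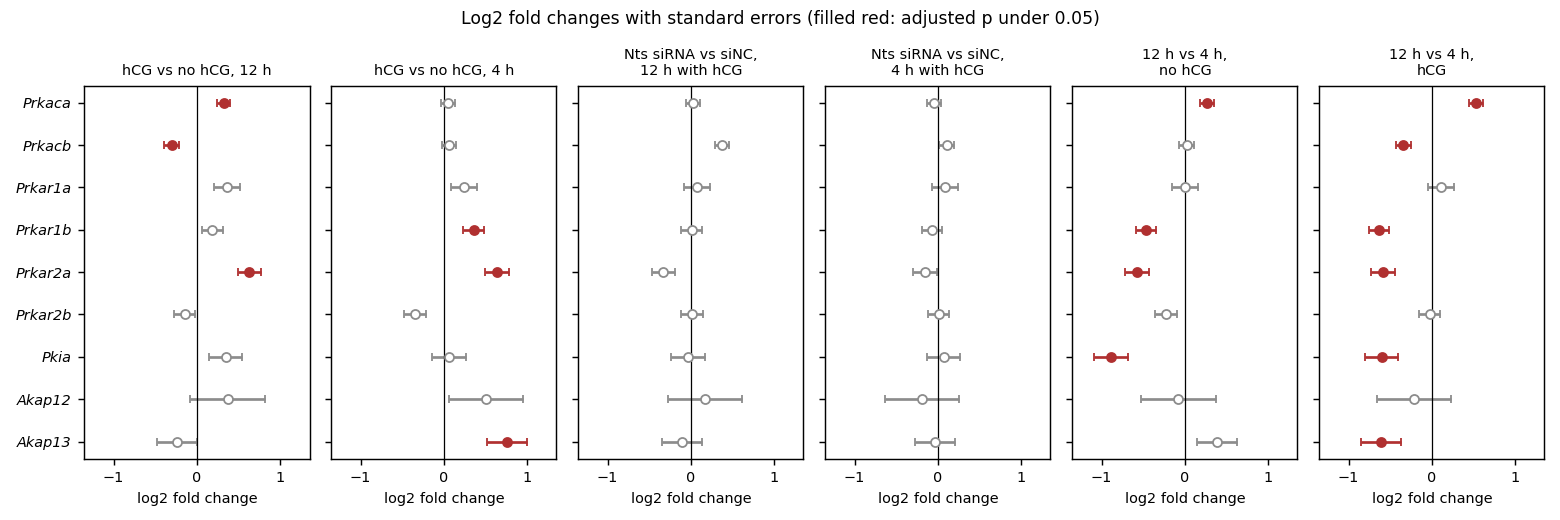
Log2 fold change (horizontal axis) of each gene in 6 comparisons, with bars of 1 standard error; filled red points have an adjusted p under 0.05. Prkar2a is filled in both hCG panels and both time panels, and no point is filled in the panels of the Nts siRNA.

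The catalytic subunits, which phosphorylate the kinase's substrates, moved in opposite directions with hCG at 12 h. Prkaca, the alpha subunit and the main form in most tissues, had 181, 161, 170.4 and 185 CPM with hCG at 12 h, against 129.7, 139, 144 and 147 CPM without hCG. Every hCG library was above every library without hCG. The log2 fold change was 0.32 ± 0.08 (SE; 1.25-fold, adjusted p = 0.0090), with a rise under 4 of 4 labels. The A_1 pair differed by 0.48 and the other pairs by 0.21 to 0.33. Without the A_1 library that stood apart the log2 fold change was 0.28 (adjusted p = 0.036). Prkaca did not pass without all A_1, A_2 or B_2 libraries, when the change was 0.26, 0.36 and 0.34 with adjusted p-values of 0.060, 0.052 and 0.081. Nor did it pass in a fit of only the contrast's libraries. At 4 h Prkaca averaged 121 ± 8.94 CPM with hCG and 116 ± 7.91 CPM without it (SD, n = 4 each). These groups overlapped, and the change was 0.05 ± 0.08 (adjusted p = 0.72).

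Prkacb, the beta catalytic subunit, had 84.0, 90.5, 94.8 and 88.3 CPM with hCG at 12 h, against 126, 108, 101 and 107 CPM without hCG. Here every hCG library was below every library without hCG, and the highest of all was the A_1 library without hCG that stood apart. Prkacb fell by 0.31 ± 0.09 on the log2 scale (adjusted p = 0.0185), and without that library the difference was −0.24 with an adjusted p of 0.087. The A_1 pair differed by −0.59 and the other pairs by −0.28 to −0.09. Prkacb also did not pass without all A_2, B_2 or B_3 libraries, with differences of −0.31, −0.38 and −0.31 and adjusted p-values of 0.132, 0.054 and 0.083. A fit of only the contrast's libraries did not call it either. At 4 h it averaged 113 ± 2.05 CPM with hCG and 109 ± 10.01 CPM without it (SD, n = 4 each), a change of 0.06 ± 0.09 (adjusted p = 0.69). The hCG effect at 12 h minus that at 4 h was −0.37 ± 0.12 for Prkacb (adjusted p = 0.10) and 0.27 ± 0.12 for Prkaca (adjusted p = 0.21). No member passed for this difference in effect, where 3.8% of all genes passed (2.35% with a positive and 1.45% with a negative difference), and 3 members had an unadjusted p under 0.05. With the culture label as a block, Prkacb (−0.37, adjusted p = 0.041) and Akap13 (−1.02, adjusted p = 0.016) passed it.

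Among the regulatory subunits, which hold the catalytic subunits inactive until cyclic AMP binds, Prkar2a changed most steadily. Prkar2a, the type II alpha subunit, had 72.6, 62.5, 63.6 and 68.3 CPM with hCG at 12 h, against 39.1, 39.0, 47.1 and 47.6 CPM without hCG. The groups did not overlap. At 4 h it had 115, 73.5, 103 and 109 CPM with hCG, against 60.7, 51.6, 75.4 and 69.7 CPM without hCG. The A_2 library was the lowest of each 4 h group, and with hCG it was just below the B_2 library without hCG, so the groups overlapped. Prkar2a rose by 0.63 ± 0.14 at 12 h (1.55-fold, adjusted p = 0.0029) and by 0.64 ± 0.14 at 4 h (1.55-fold, adjusted p = 0.0025), under 4 of 4 labels each time. It passed under each of the 10 other settings tried at both times, with a largest adjusted p of 0.043 at 12 h and 0.039 at 4 h. Without the A_1 library that stood apart, the change at 12 h was 0.58 (adjusted p = 0.013).

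Prkar1b, the type I beta subunit, best known from neurons, had 75.6, 55.2, 66.2 and 66.5 CPM with hCG at 4 h, against 47.4, 49.0, 54.6 and 55.3 CPM without hCG. The lowest hCG library, A_2, was just under the highest library without hCG. It rose by 0.35 ± 0.12 (adjusted p = 0.047) at 4 h, and its adjusted p was 0.141 without A_1, 0.069 without A_2, 0.154 without B_2 and 0.0998 without B_3. Leaving the A_1 library that stood apart out of the shared fit gave 0.0504. Prkar1b also did not pass at 4 h with only the contrast's libraries. At 12 h it averaged 42.4 ± 5.70 CPM with hCG and 37.3 ± 2.14 CPM without it (SD, n = 4 each), and the change was 0.19 ± 0.12 (adjusted p = 0.35), or 0.16 without the A_1 library that stood apart (adjusted p = 0.560).

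Prkar1a, the widely expressed type I alpha subunit, had 906, 708, 757 and 657 CPM with hCG at 12 h, against 489.5, 578, 735 and 561 CPM without hCG. The B_2 library without hCG reached into the hCG range. The change was 0.36 ± 0.16 (adjusted p = 0.135), and it passed with the culture label as a block (0.34, adjusted p = 0.044). The A_1 pair differed by 0.89 and the other pairs by 0.04 to 0.29. The change was 0.28 without the A_1 library that stood apart (adjusted p = 0.348) and 0.17 without all A_1 libraries (adjusted p = 0.371). At 4 h it had 719.8, 666, 740.2 and 675 CPM with hCG, against 737, 526, 595 and 508 CPM without hCG. Only the A_1 library without hCG was as high as the hCG libraries. The change was 0.24 ± 0.16 (adjusted p = 0.315), and without the A_1 libraries it was 0.38 (adjusted p = 0.035).

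Prkar2b, the type II beta subunit, differed downward. It had 596, 788, 780.0 and 578 CPM with hCG at 4 h, against 892, 936, 939 and 724 CPM without hCG. It was lower with hCG under each of the 4 labels, although the groups overlapped. The change was −0.35 ± 0.13 (adjusted p = 0.061), and it passed with the label block (−0.35, adjusted p = 0.015) and with DESeq2 (−0.33, adjusted p = 0.036). The authors' deposited table marks it as lower, with a log2 fold change of −0.36 and an adjusted p of 0.016. At 12 h it had 684, 693, 646 and 666 CPM with hCG, against 608, 796, 805 and 771 CPM without hCG, and the A_1 library without hCG was the lowest of its group. The change at 12 h was −0.15 ± 0.13 (adjusted p = 0.48), or −0.23 without that library (adjusted p = 0.293). Leaving it out of the shared fit gave an adjusted p of 0.048 at 4 h.

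The regulatory subunits can also be set against each other per length. Prkar2b made up 45.1% ± 3.13 of the summed regulatory CPM per kb with hCG at 12 h, against 53.9% ± 2.45 without hCG, and 44.9% ± 4.93 with hCG at 4 h, against 56.2% ± 3.67 without hCG (SD, n = 4 each). At both times the shares of the hCG libraries lay below those of the libraries without hCG, at 41.1% to 47.8% against 50.8% to 56.1% at 12 h and 40.4% to 50.8% against 52.5% to 60.8% at 4 h. Prkar1a made up 47.0% ± 3.07 with hCG at 12 h, against 39.7% ± 2.52 without hCG, and 43.1% ± 2.61 with hCG at 4 h, against 35.5% ± 3.65 without hCG. These are shares of RNA, given as a description without a test. Prkaca took 81.0% ± 1.56 of the summed catalytic CPM per kb with hCG at 12 h, against 73.5% ± 2.91 without hCG, and 69.9% ± 1.71 with hCG at 4 h, against 70.1% ± 1.502 without hCG. The summed catalytic level was 24.6% ± 2.20 of the summed regulatory level with hCG at 12 h and 23.7% ± 3.14 without hCG, and 19.4% ± 1.099 with hCG at 4 h and 18.4% ± 2.54 without hCG.

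**Figure D3:**
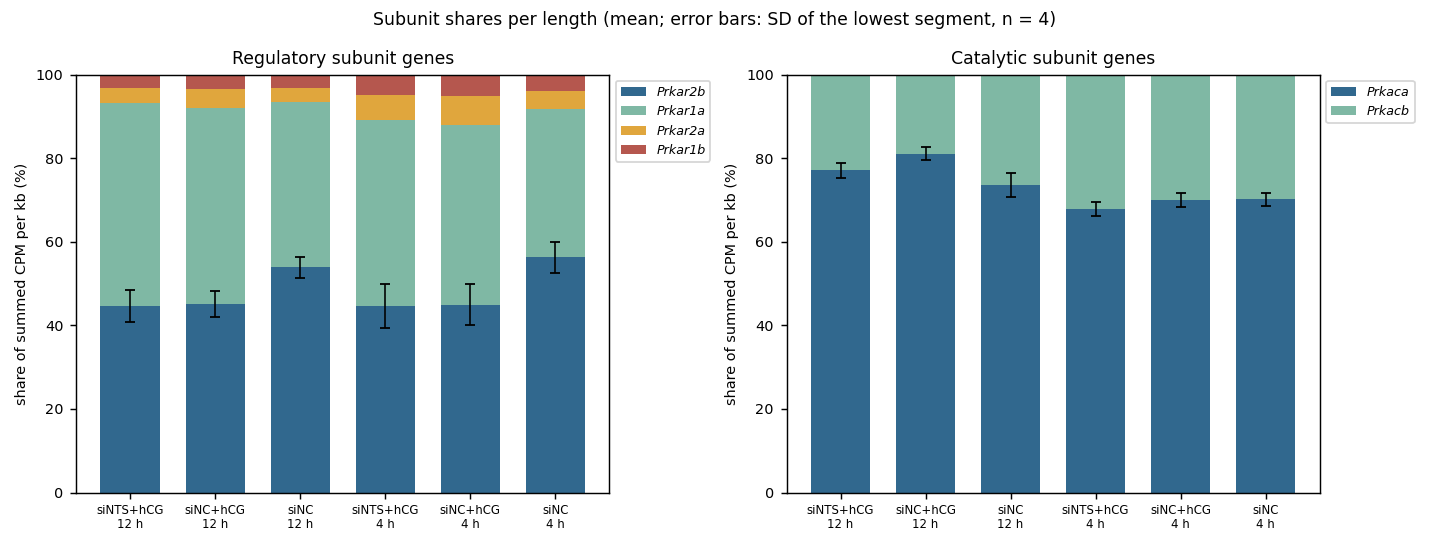
Mean share (%) of each subunit gene in the summed CPM per kb of the regulatory genes (left) and of the catalytic genes (right), by group; error bars are the SD of the lowest segment over 4 libraries. Prkar2b is at 45.1% with hCG and 53.9% without it at 12 h, and Prkaca is at 81.0% and 73.5%.

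Pkia encodes the protein kinase inhibitor alpha, a small protein that binds and blocks free catalytic subunits. It had 17.2, 12.6, 14.4 and 10.7 CPM with hCG at 12 h, against 9.36, 10.1, 14.7 and 9.07 CPM without hCG. The groups overlapped, and the change was 0.34 ± 0.20 (adjusted p = 0.28). The A_1 pair differed by 0.87 and the other pairs by −0.03 to 0.31. The change was 0.28 without the A_1 library that stood apart (adjusted p = 0.511) and 0.15 without all A_1 libraries (adjusted p = 0.717). At 4 h it averaged 20.8 ± 2.96 CPM with hCG and 20.0 ± 3.15 CPM without it (SD, n = 4 each), a change of 0.06 ± 0.20 (adjusted p = 0.87).

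Akap13, a large anchoring protein of the kinase, had 135, 112, 76.5 and 145 CPM with hCG at 4 h, against 50.4, 67.7, 59.3 and 100.1 CPM without hCG. It was higher with hCG under each of the 4 labels, and the groups overlapped through B_2 with hCG and B_3 without it. It rose by 0.76 ± 0.24 (1.69-fold, adjusted p = 0.032). The A_1 pair differed by 1.42 and the other pairs by 0.37 to 0.73, and the change was 0.58 without A_1 and 0.79 without A_2 (adjusted p = 0.138 in each case). Akap13 also did not pass at 4 h with only the contrast's libraries. At 12 h it had 56.6, 84.1, 73.1 and 93.0 CPM with hCG, against 113, 89.7, 62.8 and 96.6 CPM without hCG, a change of −0.24 ± 0.24 (adjusted p = 0.55). There the A_1 pair differed by −0.996, and the change was −0.11 without the A_1 library that stood apart (adjusted p = 0.854) and 0.0042 without all A_1 libraries.

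Akap13 has the longest transcripts of the members, with a median of 12570 bases, and the balance of long and short transcripts differed among the A_1 libraries. For each library, deviations of log2 CPM from a gene's mean over all libraries were taken, and the median over 1860 genes with transcripts of at most 1500 bases was subtracted from that over 1011 genes with at least 6000 bases. This difference was −0.97 in A_1 with siNC and hCG at 12 h, against 0.77 in A_1 with siNC and no hCG. At 4 h it was 0.14 in A_1 with siNC and hCG, against −1.26 in A_1 with siNC and no hCG. In A_1 with siNTS and hCG it was −1.18 at 12 h and −0.70 at 4 h. Over the other 18 libraries it lay between −0.58 and 0.67. The part of this balance in the changes of Akap13 and of the other members was not tested.

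Akap12, an anchoring protein that binds the kinase at the plasma membrane, had 6.33, 9.88, 7.50 and 21.5 CPM with hCG at 12 h, against 9.72, 8.18, 4.90 and 12.2 CPM without hCG. At 4 h it had 13.5, 12.6, 9.13 and 17.5 CPM with hCG, against 5.69, 9.57, 8.44 and 13.4 CPM without hCG. In all 4 groups B_3 stood above the other labels, and the groups overlapped. The changes were 0.37 ± 0.45 at 12 h (adjusted p = 0.62) and 0.50 ± 0.45 at 4 h (adjusted p = 0.49). At 12 h the A_1 pair differed by −0.62 and the other pairs by 0.27 to 0.81, and the change was 0.42 without the A_1 library that stood apart (adjusted p = 0.696) and 0.62 without all A_1 libraries (adjusted p = 0.481).

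Summed markers of several cell types differed with hCG at 12 h. The 7 immune markers summed to 11.4 to 15.9 CPM with hCG and 4.90 to 8.73 CPM without it, with Csf1r at 6.05 CPM with hCG and 1.43 CPM without it and Ptprc at 0.147 and 0.207 CPM. The 5 endothelial markers summed to 10.4 to 14.8 CPM with hCG and 7.36 to 8.47 CPM without it, and their member Tek was at 0.113 and 0.216 CPM. The 10 granulosa markers summed to 1930 to 2184 CPM with hCG and 2310 to 2628 CPM without it, with 1 of the 10 higher and 2 lower. The 5 theca and interstitial markers summed to 43.2 to 60.7 CPM with hCG and 66.2 to 96.3 CPM without it. Ptch1 made up most of this sum, at 51.5 CPM with hCG and 80.5 CPM without it. Ogn, Insl3 and Tcf21 were also lower with hCG, and Cyp17a1 was higher, at 0.962 CPM with hCG and 0.624 CPM without it. The 6 oocyte markers summed to 0.794 to 1.25 CPM with hCG and 0.598 to 7.28 CPM without it, so the groups overlapped. Among libraries without hCG, their member Gdf9 was at 2.48 CPM in B_3 and at 0.549 to 0.678 CPM under the other labels. Oosp1 averaged 0 CPM with hCG and 0.0462 CPM without it. At 4 h the granulosa sums were 3278 to 4573 CPM with hCG and 3283 to 4116 CPM without it, with 0 of the 10 markers higher and 4 lower, and the immune sums were 19.1 to 25.5 CPM and 12.1 to 27.3 CPM. The part of these cells in the members' changes was not tested.

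With siNTS in hCG-treated cells, no member passed the test at either time, where 0.162% of all genes passed at 12 h and 0.00649% at 4 h. By edgeR, 2 members had an unadjusted p under 0.05 at 12 h and 0 at 4 h, and with DESeq2 1 member passed at 12 h and 0 at 4 h. With the label block, Prkacb passed at 12 h. Groups did not overlap for 2 members at 12 h, where 2.46% of all genes did not overlap, and for 0 members at 4 h, where 0.708% did not. The hCG comparison and the siRNA comparison at each time share the siNC libraries with hCG, so their values are given side by side and are not independent.

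Prkacb had 104, 119.8, 118 and 120.0 CPM with siNTS and hCG at 12 h, against 84.0, 90.5, 94.8 and 88.3 CPM with siNC and hCG. Every siNTS library was above every siNC library with hCG, and the siNTS levels lay in the range of the siNC libraries without hCG (101 to 126 CPM). The difference was 0.37 ± 0.09 (edgeR, unadjusted p = 0.00037, adjusted p = 0.12). It lay between 0.31 and 0.44 under each of the 4 labels. It passed with the label block (adjusted p = 0.046), with DESeq2 (adjusted p = 0.00071) and without the A_1 libraries (adjusted p = 0.018), and the authors' deposited table marks it as higher, with a log2 fold change of 0.37 and an adjusted p of 0.0019. The hCG change of Prkacb at 12 h, over the shared siNC libraries, was −0.31 ± 0.09. At 4 h Prkacb averaged 122 ± 7.96 CPM with siNTS and 113 ± 2.05 CPM with siNC (SD, n = 4 each), a difference of 0.10 ± 0.09 (adjusted p = 1).

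Prkar2a had 52.2, 53.5, 52.6 and 53.7 CPM with siNTS and hCG at 12 h, against 72.6, 62.5, 63.6 and 68.3 CPM with siNC and hCG. Every siNTS library was below every siNC library with hCG and above the siNC libraries without hCG, which had 39.0 to 47.6 CPM. The difference was −0.33 ± 0.14 (edgeR, unadjusted p = 0.027, adjusted p = 1.00). It lay between −0.47 and −0.22 under each of the 4 labels. In the authors' deposited table it is −0.33 with an adjusted p of 0.076. The hCG change of Prkar2a at 12 h, over the shared siNC libraries, was 0.63 ± 0.14. The other 7 members differed by −0.10 to 0.17 at 12 h, and all 9 by −0.19 to 0.10 at 4 h.

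More members passed between the times, in each medium, than with hCG or the siRNA at either time, as among all genes. The 12 h cells in hCG had also been exposed to it for longer than the 4 h cells. With hCG, 1 member was higher and 5 were lower at 12 h than at 4 h, where 43.2% of all genes passed, 22.9% as higher and 20.2% as lower. Without hCG, 1 was higher and 3 were lower, where 30.8% of all genes passed, 14.8% as higher and 16% as lower. Groups did not overlap for 5 members with hCG and 4 without it, beside 43.1% and 27.4% of all genes. Of the 10 granulosa markers, 5 were higher and 3 lower with hCG, and 3 were higher and 3 lower without it. Their sum was 1930 to 2184 CPM at 12 h and 3278 to 4573 CPM at 4 h with hCG, and 2310 to 2628 CPM at 12 h and 3283 to 4116 CPM at 4 h without hCG. This sum leaned on the inhibin subunit genes Inha and Inhba. Inha averaged 805 CPM at 12 h and 2033 CPM at 4 h with hCG, and Inhba 193 and 1035 CPM. Fshr went the other way, at 35.5 CPM at 12 h and 8.51 CPM at 4 h with hCG, as did Amhr2 at 105 and 27.7 CPM. The 5 surface epithelium markers summed to 0.767 to 1.09 CPM at 12 h and 3.57 to 6.96 CPM at 4 h with hCG, and to 0.634 to 1.23 CPM at 12 h and 3.20 to 5.46 CPM at 4 h without hCG. The immune sums were 11.4 to 15.9 CPM at 12 h and 19.1 to 25.5 CPM at 4 h with hCG, and 4.90 to 8.73 CPM at 12 h and 12.1 to 27.3 CPM at 4 h without hCG. The endothelial sums were 10.4 to 14.8 CPM at 12 h and 5.29 to 9.73 CPM at 4 h with hCG, and overlapped without it. The erythrocyte sums were 101 to 907 CPM at 12 h and 302 to 3050.0 CPM at 4 h with hCG, and 112 to 1496 CPM at 12 h and 336 to 4283 CPM at 4 h without hCG. The part of these markers' cells in the members' changes was not tested.

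Prkaca rose over time in both media, by 0.53 ± 0.08 with hCG (adjusted p = 2.1e-05) and by 0.27 ± 0.08 without hCG (adjusted p = 0.018). Prkar1b fell by 0.64 ± 0.12 with hCG (adjusted p = 0.00025) and by 0.47 ± 0.12 without it (adjusted p = 0.0062). Prkar2a fell by 0.58 ± 0.14 in each medium (adjusted p = 0.0018 with hCG and 0.0035 without hCG). All 3 genes changed in the same direction under 4 of 4 labels, and their 12 h and 4 h groups did not overlap in either medium. Without hCG, Prkaca did not pass without A_2, B_2 or B_3 (0.29, 0.28 and 0.23, adjusted p = 0.068, 0.103 and 0.106), nor Prkar1b without B_2 or B_3 (−0.48 and −0.44, adjusted p = 0.053 and 0.057).

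Pkia was at 17.2, 12.6, 14.4 and 10.7 CPM at 12 h with hCG, against 20.0, 18.5, 25.2 and 19.7 CPM at 4 h. Without hCG it was at 9.36, 10.1, 14.7 and 9.07 CPM at 12 h, against 23.1, 15.6, 20.8 and 20.4 CPM at 4 h. Every 12 h library was below every 4 h library in each medium. The fall was 0.60 ± 0.20 with hCG (adjusted p = 0.019) and 0.89 ± 0.20 without hCG (adjusted p = 0.0021). Pkia, Prkaca, Prkar1b and Prkar2a each passed without hCG when the A_1 library that stood apart was left out (adjusted p = 0.0097 to 0.022). With hCG it did not pass without A_2, B_2 or B_3 (−0.62, −0.55 and −0.54, adjusted p = 0.051, 0.087 and 0.108). Per length, Pkia stood at 5.52% ± 1.12 of the summed catalytic level at 12 h with hCG, against 10.5% ± 1.28 at 4 h, and at 4.92% ± 1.22 at 12 h without hCG, against 10.5% ± 2.22 at 4 h. These shares count Pkia alone. They leave out the related inhibitor gene Pkig, which averaged more at 12 h than at 4 h in both media, as given below.

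Prkacb and Akap13 fell over time with hCG, by 0.34 ± 0.09 (adjusted p = 0.0031) and 0.61 ± 0.24 (adjusted p = 0.046). Without hCG their differences were 0.02 ± 0.09 (adjusted p = 0.87) and 0.38 ± 0.24 (adjusted p = 0.24), and Akap13 differed by 1.16 in the A_1 pair and by −0.05 to 0.40 in the other pairs. With hCG the difference of Akap13 was −0.43 without A_1, −0.69 without A_2 and −0.62 without B_3 (adjusted p = 0.189, 0.098 and 0.073). Prkar1a, Prkar2b and Akap12 passed in neither medium, with differences of −0.23 to 0.11.

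A wider list of 56 genes gave the rest of the pathway, from G proteins and adenylyl cyclases to CREB coactivators, and 48 of these were tested. With hCG, 7 were higher and 5 lower at 12 h, where 8.18% of all genes were higher and 8.36% lower, and 9 were higher and 3 lower at 4 h, where 7.95% were higher and 11.1% lower. None passed for the Nts siRNA at either time by edgeR or DESeq2, and 0 had an unadjusted p under 0.05 by edgeR. The list's median change was −0.11 at 12 h and 0.11 at 4 h, beside −0.01 and −0.07 over all genes. Of the 20 other anchoring protein genes tested, 3 were higher and 3 lower at 12 h, and 2 higher and 1 lower at 4 h.

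Ezr, encoding ezrin, which links membranes to actin and anchors the kinase, averaged 267 CPM with hCG and 124 CPM without it at 12 h, and 389 CPM with hCG and 186 CPM without it at 4 h. It rose by 1.11 ± 0.18 at 12 h (adjusted p = 0.00012) and by 1.07 ± 0.18 at 4 h (adjusted p = 0.00021). Akap7, a small anchoring protein of the plasma membrane, averaged 15.8 CPM with hCG and 22.3 CPM without it at 12 h, and 9.23 CPM with hCG and 18.8 CPM without it at 4 h. It fell by 0.50 ± 0.11 at 12 h (adjusted p = 0.0020, and 0.073 without A_2) and by 1.03 ± 0.11 at 4 h (adjusted p = 8.0e-07). Akap1, which anchors the kinase at the outer mitochondrial membrane, rose by 0.65 ± 0.12 at 12 h (adjusted p = 0.00059), with 129 CPM with hCG and 82.1 CPM without it.

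Other cyclic AMP effectors also changed. Rapgef4, encoding EPAC2, a cyclic AMP-activated exchange factor for RAP proteins, averaged 6.63 CPM with hCG and 19.8 CPM without it at 12 h, and 4.65 CPM with hCG and 10.7 CPM without it at 4 h. It fell by 1.58 ± 0.28 at 12 h (adjusted p = 0.00028) and by 1.20 ± 0.28 at 4 h (adjusted p = 0.0037). Bves and Popdc3 encode popeye proteins, membrane proteins that bind cyclic AMP. Bves rose by 1.04 ± 0.20 at 12 h (adjusted p = 0.00069) and by 1.11 ± 0.20 at 4 h (adjusted p = 0.00040), and Popdc3 rose by 1.22 ± 0.24 at 4 h (adjusted p = 0.00092).

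Downstream, Crem, a CRE-binding factor with activating and repressing isoforms, averaged 52.4 CPM with hCG and 16.1 CPM without it at 4 h. It rose by 1.70 ± 0.23 at 4 h (adjusted p = 1.8e-05). Crtc3, a coactivator of CREB, fell by 0.54 ± 0.12 at 12 h (adjusted p = 0.0019, and 0.061 without A_2). Of the 48 genes, 2 passed for a difference of the hCG effect between the times, Cbfa2t3 (1.29 ± 0.29, adjusted p = 0.015) and Crtc3 (−0.59 ± 0.16, adjusted p = 0.044), both with the effect at 12 h minus that at 4 h. Cbfa2t3, which encodes a transcriptional corepressor and anchor, did not pass this without A_2, B_2 or B_3 (adjusted p = 0.147, 0.058 and 0.076), and Crtc3 did not when any 1 label was left out (adjusted p = 0.067 to 0.24), without the siNC library A_1 of 12 h without hCG (0.083), without a filter on low counts (0.107) or with only the contrast's libraries (0.078). Of the kinase inhibitors, Pkig, the gamma form, was the seventh of the list at 4 h; it is named here after its values were seen, since it belongs to the same family as Pkia. It averaged 27.2 CPM with hCG and 55.7 CPM without it and fell by 1.03 ± 0.27 (adjusted p = 0.0096, with −0.71 and 0.082 without A_1 and −1.08 and 0.077 without A_2).

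**Figure D4:**
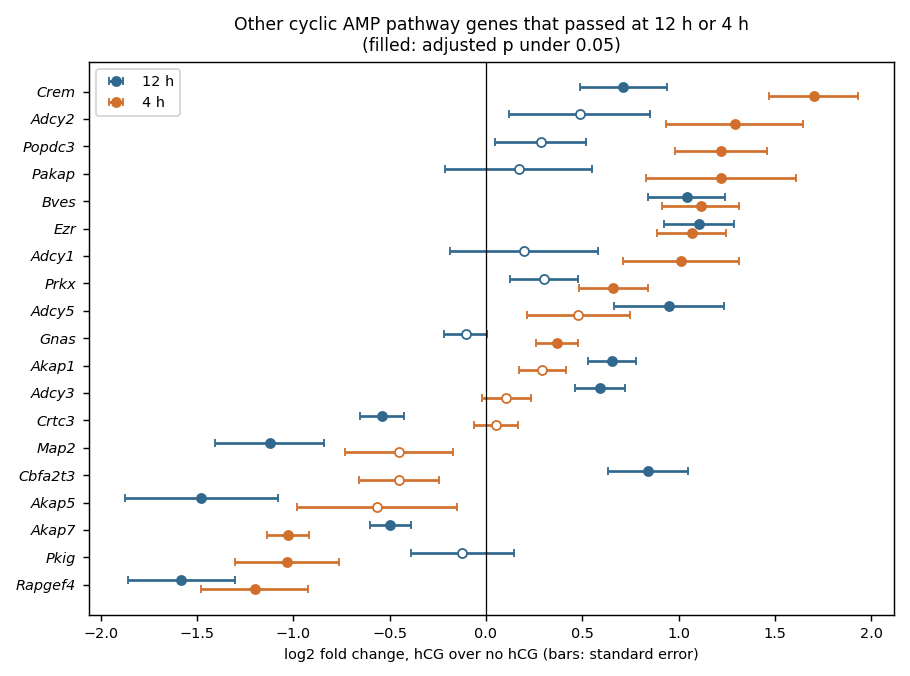
Log2 fold change of hCG over no hCG (horizontal axis, bars 1 standard error) for the genes of the wider list that passed at 12 h (blue) or 4 h (orange); filled points have an adjusted p under 0.05. Ezr and Bves lie near 1 at both times, and Rapgef4 at −1.58 at 12 h and −1.20 at 4 h.

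Over time, 8 genes of the wider list were higher and 11 lower at 12 h than at 4 h with hCG, and 8 were higher and 8 lower without hCG. Of all genes, 22.9% were higher and 20.2% lower with hCG, and 14.8% higher and 16% lower without hCG, so the list's shares were near those of all genes. Gnai1, an inhibitory G protein subunit, averaged 21.0 CPM at 12 h and 77.1 CPM at 4 h with hCG, and 27.3 CPM at 12 h and 62.4 CPM at 4 h without hCG. It fell by 1.88 ± 0.19 with hCG (adjusted p = 7.0e-08) and by 1.19 ± 0.18 without hCG (adjusted p = 4.2e-05). The adenylyl cyclase gene Adcy9 rose by 1.11 ± 0.18 with hCG (adjusted p = 3.2e-05) and by 1.06 ± 0.18 without hCG (adjusted p = 0.00011). Pkig rose by 1.84 ± 0.28 with hCG (adjusted p = 1.6e-05), with 97.4 CPM at 12 h and 27.2 CPM at 4 h, while Pkia fell. Without hCG, Pkig averaged 106 CPM at 12 h and 55.7 CPM at 4 h. Akap5, which anchors the kinase near membrane receptors, rose by 2.52 ± 0.41 without hCG (adjusted p = 9.4e-05), with 11.9 CPM at 12 h and 2.06 CPM at 4 h. With hCG, Akap5 averaged 4.25 CPM at 12 h and 1.39 CPM at 4 h.

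Genes whose 6 group means of log2 CPM followed a member most closely were found among 10422 genes averaging at least 5 CPM, by the root mean square difference after centring. For Prkar2a these were Tatdn2 (0.086), Notch1 (0.096) and Spty2d1 (0.098), over a range of 1.20 in Prkar2a itself. For Prkaca they were Mmgt2 (0.032), Rab5c (0.042) and Edf1 (0.043), and for Prkacb Gid4 (0.054), Terf2 (0.056) and Creb1 (0.058), the gene of CREB. For Prkar1b they were Ftsj3 (0.026), Taf5l (0.028) and Ap2a2 (0.032), and for Akap13 Myo10 (0.045), Spen (0.049) and Fndc3a (0.052).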

How the data were processed

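Per the labels' protocols, each of the 24 libraries came from a stranded mRNA kit, with 151 cycles per end on 2 lanes. The authors deposited estimated counts per gene, not scaled between libraries. The submitters' processing notes name GRCm39, Salmon 1.4.0, limma and edgeR without their roles. The authors also deposited log2 fold changes with p-values and adjusted p-values of their own comparisons, and log2 CPM per library, which entered no test; the model behind them is not stated. Sequences came from RefSeq and transcript lengths from GENCODE, both on GRCm38, so no gene coordinates of the files' build are printed.

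Estimated counts were rounded and tested with edgeR 4.0.16 (R 4.3.3) in 1 quasi-likelihood fit of all 24 libraries, 1 coefficient per group, with filterByExpr, TMM scaling and Benjamini-Hochberg adjustment over 15405 genes at a threshold of 0.05. A standard error is the size of the log2 fold change over the square root of F. The steps were tested on simulated data for hCG at 4 h. Those counts were drawn independently for each library, without effects of the culture label, so they cannot speak to the pairing. Alternatives were RLE size factors, no filter, DESeq2 1.42.0, only the contrast's libraries, the label block and leaving out each label; leaving out the A_1 library of siNC without hCG at 12 h and union exon lengths were added after seeing the data.

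The replicate labels recur in each group and mark a shared culture date, so they pair samples. The main fit left this pairing out, and the label block is the alternative that holds it. Of 24 pairs of same-label libraries 21 had deviations from the group means that correlated over 0.1, with a median of 0.528 over 10959 genes. In each of 36 pairs of libraries within groups, counts differed by more than sampling noise.

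The members and lists were chosen with earlier results of these data known. All 9 members were named, with up to 6 genes of the wider list by smallest adjusted p per comparison and the 3 nearest profiles of each member that passed with hCG; exceptions are stated.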

Additional observations from a re-analysis of the deposited data

Results flagged for a closer look

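In 54 sets of 4 libraries (9 genes in 6 groups), the gap of the highest or lowest library to the next was set against the whole range of the group and compared with Dixon's critical value for 4 samples, which chance passes in about 1 of 20 sets. There were 2 such libraries. Prkacb in the A_1 library with siNTS and hCG at 12 h was at 104 CPM, below the 118 to 120.0 CPM of the other 3, a gap of 0.898 of the range. Prkar2b in the A_1 library with siNC and no hCG at 12 h was at 608 CPM, below the 771 to 805 CPM of the other 3, a gap of 0.844 of the range.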

How the results depend on the processing

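Of the 63 member results (9 genes in 7 comparisons), none changed direction while called, and between 56 and 63 kept their side of the threshold under each setting. Prkar2a kept its 4 calls under all 10 settings. With only the contrast's libraries, 1 member passed for hCG at 12 h and 1 at 4 h, Prkar2a each time. All-gene counts were then 1763 for hCG at 4 h and 1 for siNTS at 12 h. With DESeq2, 1 member passed for siNTS at 12 h and 1 for the hCG effect at 12 h minus that at 4 h, and all-gene counts were 61 for siNTS at 12 h, 6 for siNTS at 4 h and 1061 for the change of effect. Without a filter, 4 of the members' called results did not pass, and the paragraphs on single genes do not list these. All-gene counts were then 14 for siNTS at 12 h and 385 for the change of effect. With the label block, 1 member passed for siNTS at 12 h and 2 for the change of effect, and all-gene counts were 4164 for hCG at 12 h, 4642 at 4 h, 91 for siNTS at 12 h, 3 at 4 h and 2174 for the change of effect; its other changed calls stand in the report, and it changed no further call.

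Leaving out 1 label or library, 1 to 2 members passed for hCG at 12 h, 1 to 3 for hCG at 4 h, 0 to 1 for siNTS at 12 h, 4 to 6 over time with hCG and 2 to 4 over time without hCG. All-gene counts ranged over 1277 to 2295 for hCG at 12 h, 1280 to 2980 for hCG at 4 h, 0 to 44 for siNTS at 12 h, 0 to 3 for siNTS at 4 h, 3143 to 4475 over time without hCG and 69 to 468 for the change of effect. The causes were not tested. Of 35 called results of the wider list's named genes, 25 to 32 kept their call when 1 label or library was left out and 34 to 35 under the other settings, and by DESeq2 5 of its 48 genes passed for the change of effect, where 2 passed by edgeR. Akap12, at 4.90 to 27.3 CPM, had the largest standard error of the members (0.45 in the hCG comparisons).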
